A study of Mus musculus with 2 samples.

Results

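The itch neurons described here are sensory neurons of mouse dorsal root ganglia that carry Nppb, the gene of B-type natriuretic peptide, and Il31ra, a subunit of the receptor for the itch cytokine interleukin 31. Members were selected on their own UMI counts: a barcode had to hold at least 3000 unique molecular identifiers (UMIs), at least 5 UMIs and 5 per 10000 of Nppb and Il31ra together with at least 1 UMI of each, and to hold less than 3 per 10000 of Trpm8, 5 of Mrgprb4 and 5 of Th. The rule found 473 cells of 27777, of which 265 of 15710 were in the control library and 208 of 12067 in the Treg_Penk_KO library. Both libraries came from fixed cervical ganglia of mice given tamoxifen and then imiquimod for 3 days, an irritant cream ingredient used to model psoriasis in skin. The control mice were Foxp3 CreER; Penk fl/WT and the others Foxp3 CreER; Penk fl/fl, so both groups carried the tamoxifen-dependent recombinase, expressed from Foxp3, a gene of regulatory T cells, and at least 1 floxed allele of Penk, the enkephalin precursor gene. Each group was 1 pooled library, and the labels give neither the number of mice in it nor their age. Nothing can therefore be tested between genotypes, and every interval below is an exact 95% interval that covers counting error only.

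Itch-sensing neurons of this kind have unmyelinated fibres that end in the skin. Interleukin 31, made by activated T helper cells, binds a receptor built from Il31ra and Osmr and signals through the kinase Jak1. Natriuretic peptide released in the spinal cord relays the itch signal to the next neuron, and somatostatin, encoded by Sst, is released by the same cells. Receptors for leukotrienes (Cysltr2) and serotonin (Htr1f) on these neurons are other known entry points for itch.

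The promoters of the genes for both peptides are shown because these genes name the population and are read against each other below. They are RefSeq sequences on GRCm38.p6, from 250 bases before the gene start to 50 after it. The Nppb promoter lies at chr4:147985650-147985949 on the plus strand, with its TATAAA motif in capitals. The Sst promoter lies at chr16:23890795-23891094 on the minus strand, with its cAMP response element TGACGTCA in capitals.
Nppb: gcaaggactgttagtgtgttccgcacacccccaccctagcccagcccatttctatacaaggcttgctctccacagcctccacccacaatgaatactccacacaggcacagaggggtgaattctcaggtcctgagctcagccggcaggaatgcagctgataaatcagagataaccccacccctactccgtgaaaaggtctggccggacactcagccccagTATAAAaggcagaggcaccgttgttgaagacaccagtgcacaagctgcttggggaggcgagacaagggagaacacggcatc
Sst: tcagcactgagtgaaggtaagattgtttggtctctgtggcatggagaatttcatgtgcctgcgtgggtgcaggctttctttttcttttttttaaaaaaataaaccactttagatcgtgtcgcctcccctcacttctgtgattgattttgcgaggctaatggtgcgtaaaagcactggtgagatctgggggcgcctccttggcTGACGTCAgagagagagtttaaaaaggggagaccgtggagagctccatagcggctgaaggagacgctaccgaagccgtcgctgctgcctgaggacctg
Searched on both strands, TATAAA was found in 13.6% and TGACGTCA in 1.79% of the 32851 promoters of that table. The motif TTCNNNGAA, which STAT factors bind, was found in the promoter of Il31ra among the 6 marker genes and in 8.30% of all promoters. None of the 6 held TGTGGT, the core bound by RUNX factors, which 16.8% of all promoters held, and a match or its absence describes only these letters in this window.

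Among barcodes of at least 3000 UMIs, itch neurons made up 265 of 7272 in the control library, a share of 3.64% (3.23 to 4.10, Clopper-Pearson). In the Treg_Penk_KO library they made up 208 of 5300, or 3.92% (3.42 to 4.48). The 2 intervals overlapped over most of their length. As a share of sensory neurons they were 4.26% of 6214 (3.78 to 4.80) and 4.54% of 4584 (3.95 to 5.18). Sensory neurons were the members, whatever their neuronal genes, and the other sensory neurons. The latter were other barcodes of that depth with at least 60 per 10000 of the 6 neuronal genes Snap25, Tubb3, Uchl1, Stmn2, Prph and Elavl4. The members held 7118391 and 5646352 UMIs, with a median of 24366 and 22949.5 UMIs and 6281 and 5990.5 genes per cell. Some droplet barcodes occurred in both libraries, and 75 control members (28.3%) and 85 Treg_Penk_KO members (40.9%) sat in one of them. Over all barcodes these shares were similar, 30.1% for control and 39.1% for Treg_Penk_KO. Itch neurons from both libraries met in 0 droplets. That count says little, because itch neurons were 1.69% of all control and 1.72% of all Treg_Penk_KO barcodes.

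The summed level of Nppb and Il31ra ran from 5.05 per 10000 through a median of 23.4 to 65.8 in control members and from 5.34 through 24.9 to 51.9 in Treg_Penk_KO members. Just inside the limit stood control members at 5.05, 5.20 and 5.21, and just outside it barcodes at 4.92, 4.89 and 4.87. In the Treg_Penk_KO library the corresponding values were 5.34, 5.41 and 5.45 inside and 4.95, 4.87 and 4.74 outside. Between 2 and 5 per 10000 lay 29 control and 39 Treg_Penk_KO barcodes that held at least 5 UMIs and both genes, against 33 and 26 members between 5 and 10. Of the 277 and 214 barcodes past the summed level, Trpm8 removed 5 and 4, Th removed 2 and 2, Mrgprb4 removed 3 and 0, and the lack of 1 of the genes 2 and 0. Il31ra had more UMIs than Nppb in 193 of 265 and in 162 of 208 members, which does not rank these genes because each is read by its own probes.

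The label fits the marker genes. Osmr, the partner of Il31ra, had a UMI in 97.4% of control and 98.6% of Treg_Penk_KO members. Cysltr2 had one in 94.7% and 95.7%, and Htr1f in 85.3% and 91.3%. All 6 markers were found together in 156 control members (58.9%) and 143 Treg_Penk_KO members (68.8%), and 2 control members held none of Sst, Osmr, Cysltr2 and Htr1f. In non-neuronal barcodes, which are shallower (median 6509 and 6641 UMIs), the shares were 6.11% and 4.64% for Cysltr2 and 3.18% and 4.33% for Htr1f. For Osmr they were 32.0% and 38.1%, and its level there, 48.5 and 62.1 CPM, was above that of the other sensory neurons, so these barcodes give no background for Osmr. With every barcode thinned to 3000 UMIs the members stood at 89.4% and 89.9% for Osmr, and non-neuronal barcodes at 15.9% and 16.4%.

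Levels are given as CPM, the UMIs summed over a class and scaled to its total, and levels of different genes are not ranked because each gene is read by its own probes. Nppb stood at 893 CPM (6357 UMIs) in control and 1003 CPM (5663 UMIs) in Treg_Penk_KO members, against 4.74 and 5.57 in the other sensory neurons. Il31ra stood at 1271 and 1414 CPM against 9.79 and 11.1. These 2 genes chose the members, so their levels are a description only. Osmr was at 927 and 1058 CPM in the members and at 25.7 and 33.2 in the other sensory neurons. Among the neurons that carry Mrgpra3, another itch receptor gene, Osmr was at 164 and 172 CPM, between the members and the rest.

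Cysltr2 was at 508 CPM in control and 575 in Treg_Penk_KO members, against 8.70 and 9.28 in the other sensory neurons. Htr1f was at 252 and 287 CPM against 5.90 and 7.15, and had 0 UMIs in 104 and 99 Mrgpra3 neurons. Sst was at 169 and 191 CPM against 0.821 and 1.54. Sst was the marker found in the fewest members, with a UMI in 62.6% of control and 77.4% of Treg_Penk_KO members, or 27.9% and 46.6% once each was thinned to 3000 UMIs, against 1.96% and 0.619% unthinned in non-neuronal barcodes. The 99 control members without Sst were shallower, at a median of 10985 UMIs against 29218 in those with it. In the Treg_Penk_KO library the 47 members without Sst had a median of 17492 UMIs, against 24382 in those with it. Whether depth accounts for the gap in Sst between the libraries was not tested.

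**Figure D1:**
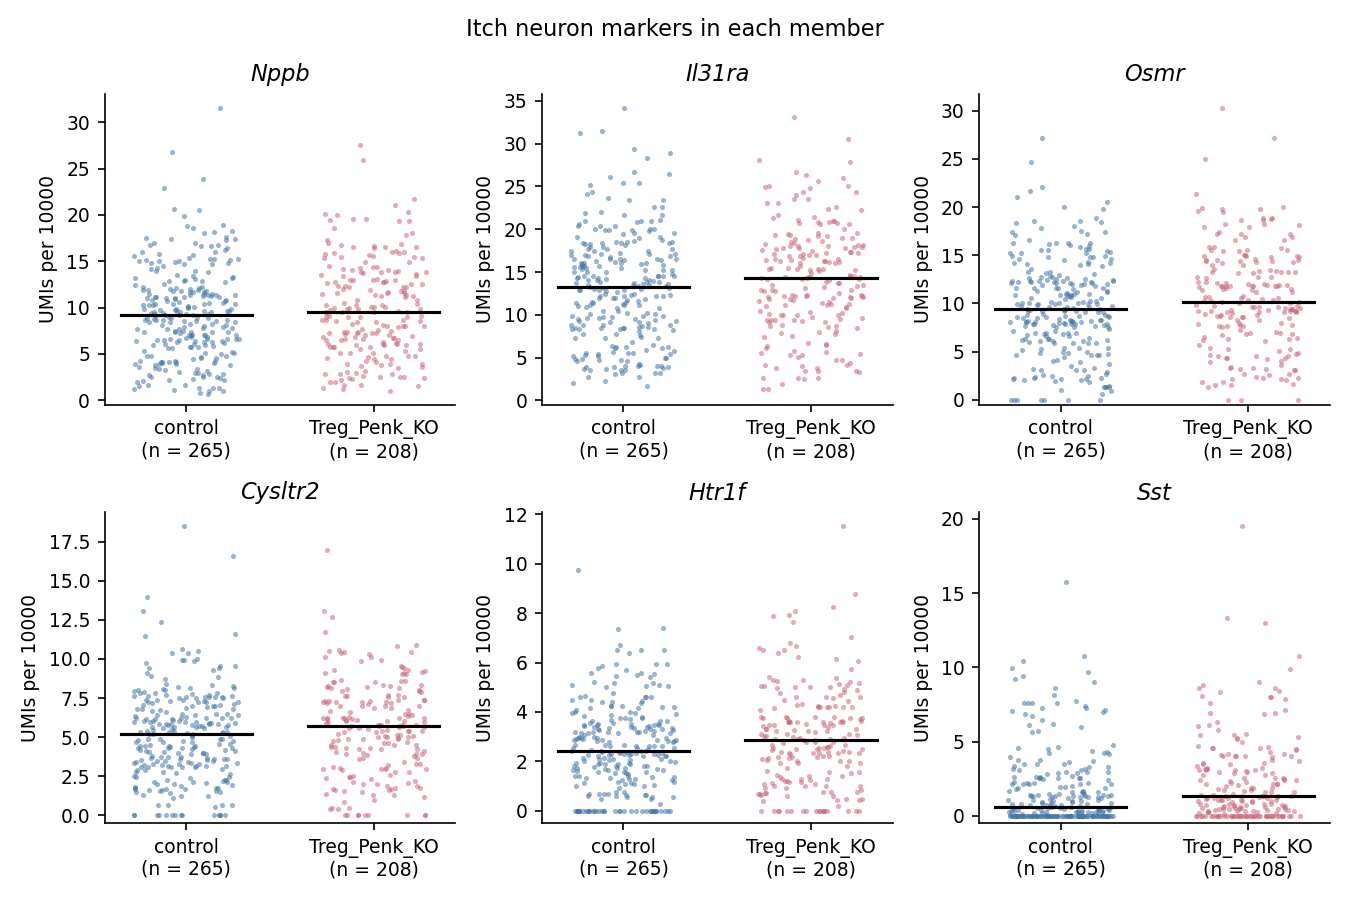
UMIs per 10000 of the 6 marker genes in every member, with 1 point per cell, the 2 libraries on the x axis and a black line at the median. Medians of Nppb lie at 9.19 and 9.50 and those of Osmr at 9.43 and 10.2, while many members sit at 0 for Sst.

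On the genome build GRCm39 used by the authors, Nppb (ENSMUSG00000029019) lies on chromosome 4 from 148069859 to 148071662 on the plus strand. Il31ra (ENSMUSG00000050377) lies on chromosome 13 from 112656432 to 112730894 and Osmr (ENSMUSG00000022146) on chromosome 15 from 6843053 to 6904450, both on the minus strand. Cysltr2 (ENSMUSG00000033470) lies on chromosome 14 from 73263043 to 73286554. Htr1f (ENSMUSG00000050783) and Sst (ENSMUSG00000004366) share chromosome 16, from 64742111 to 64926217 and from 23707321 to 23711733, again on the minus strand.

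Against the other sensory neurons, 364 of 7525 genes (4.84%) were at least 2-fold higher in the members of both libraries and 626 (8.32%) at least 2-fold lower. The median ratio over all of these genes was 1.03. The 15 genes with the highest ratio, taken as the lower of the 2 libraries and with the genes of the rule left out, were Bmp8a, Sst, Napsa, Il18r1, F2rl1, Ptafr, Pde4c, Ada, Cysltr2, Il1r2, Trpm6, Npy2r, Htr1f, Htr1a and P2rx2. Their ratios ran from 126 for Bmp8a to 35.6 for P2rx2, and all were in the same direction in both libraries because the rule for naming them asked for it.

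Several of these genes encode receptors. F2rl1, which encodes the protease receptor PAR2, was at 60.3 CPM in control and 53.0 in Treg_Penk_KO members, against 0.580 and 0.483 in the other sensory neurons. Ptafr, the receptor for platelet-activating factor, was at 116 and 110 CPM against 1.36 and 1.23. Htr1a, a serotonin receptor, was at 247 and 283 CPM against 5.73 and 7.52. Npy2r, a receptor for neuropeptide Y, was at 512 and 546 CPM against 8.80 and 10.5. These receptor genes stood far above the rest in both libraries.

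Cytokine receptors and enzymes were also among the 15. Il1r2, the decoy receptor for interleukin 1, was at 43.0 and 42.7 CPM against 0.602 and 0.743, and Il18r1, a subunit of the interleukin 18 receptor, at 24.6 and 21.3 CPM against 0.196 and 0.193. Ada, which encodes adenosine deaminase, was at 270 and 277 CPM against 3.73 and 4.03. Pde4c, a phosphodiesterase that breaks down cyclic AMP, was at 399 and 455 CPM against 4.53 and 5.99. The ion channel gene P2rx2, a receptor for ATP, was at 60.1 and 65.0 CPM in the members and, unlike most of the others, at 20.8 CPM in the control Mrgpra3 neurons.

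**Figure D2:**
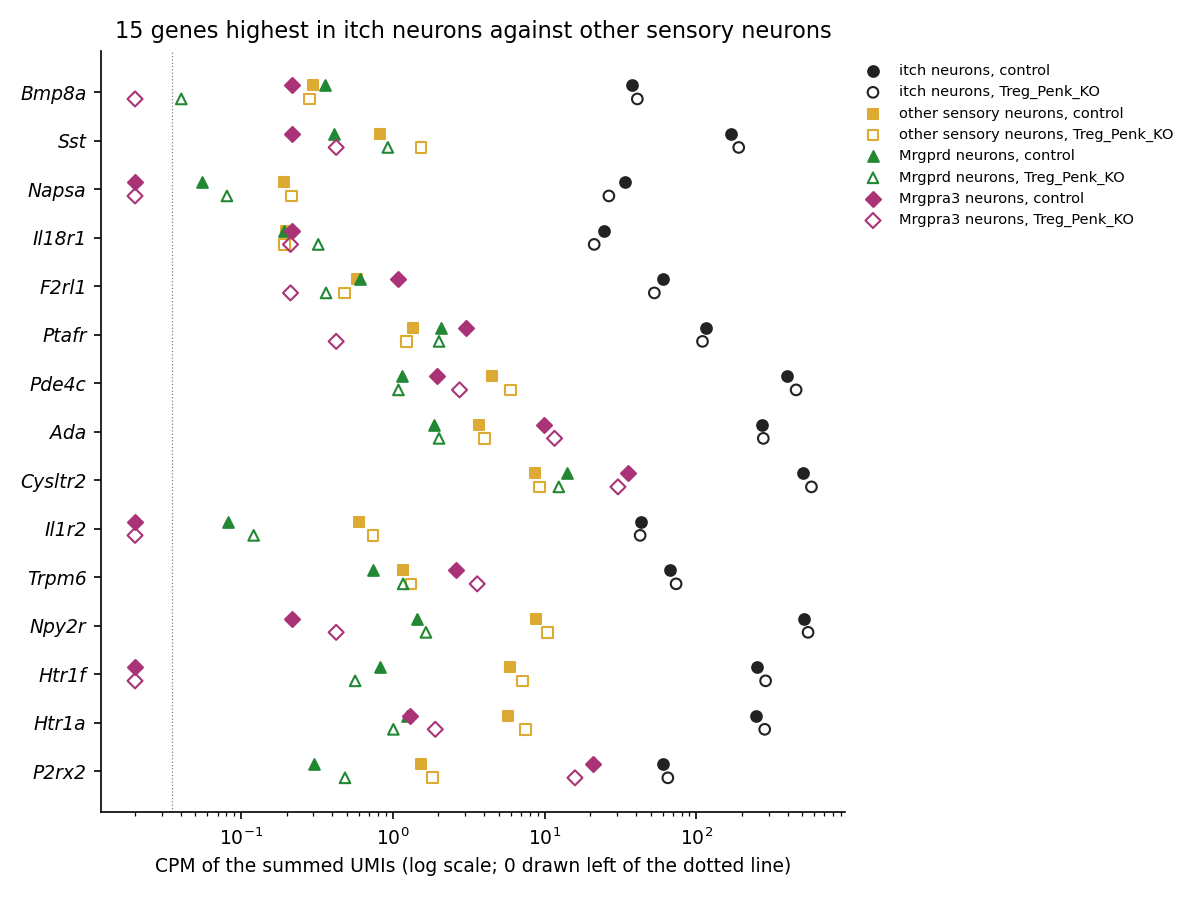
CPM on a log scale of the 15 genes highest in the itch neurons against the other sensory neurons, with filled symbols for the control and open symbols for the Treg_Penk_KO library. Circles are itch neurons, squares other sensory neurons, triangles Mrgprd neurons and diamonds Mrgpra3 neurons. In all 15 genes the circles lie to the right, and P2rx2 and Cysltr2 have the highest diamonds.

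The interleukin 31 receptor pathway was counted over a list of 32 genes, 24 of them high enough to be read. With Il31ra, which chose the members, left out, 4 of 23 were at least 2-fold higher in the members of both libraries (Osmr, Jak1, and outside the naming rule, named after their values were seen, Socs2 and Gab1) and 0 lower, against 4.84% and 8.32% of all genes. The median ratio over the 23 was 1.60 against 1.03 over all genes. Jak1, the kinase bound to the receptor, was at 2392 CPM (17027 UMIs) in control and 2532 CPM (14298 UMIs) in Treg_Penk_KO members, against 296 and 274 in the other sensory neurons. Socs2, a feedback inhibitor of cytokine signalling, had ratios of 8.21 and 7.47. Lifr, a related receptor subunit that many sensory neurons carry, was at 1231 and 1258 CPM against 759 and 797.

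Of 20 other itch receptors read, with the rule gene Mrgprb4 left out, 8 were at least 2-fold higher and 6 lower. Over all genes the shares were 4.84% higher and 8.32% lower. The lower ones included Mrgprd and Lpar3, which mark another class of unmyelinated neurons, with 60.1 and 72.8 CPM of Mrgprd in the members and 25.3 and 27.6 CPM of Lpar3. Of the 5 markers of that class read, 3 were lower and 1 was higher: Gna14, a G protein subunit named after its value was seen, had ratios of 3.26 and 3.04. Among 19 neuropeptide genes, with Nppb left out, 4 were higher and 6 lower, against the same shares of all genes. Nts, the neurotensin gene, was at 142 and 244 CPM in the members against 6.94 and 5.41, and Scg2, a granin of dense-core vesicles, at 1226 and 1178 CPM against 230 and 255. Calca, which encodes the peptide CGRP, was lower, at 80.1 and 110 CPM against 434 and 529.

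Among 15 transduction channels, with the rule gene Trpm8 left out, 2 were higher, P2rx2 and Trpv1, and 3 lower, against 4.84% and 8.32% of all genes. Trpv1, the capsaicin and heat channel, was at 317 CPM in control and 362 in Treg_Penk_KO members, against 64.2 and 77.2 in the other sensory neurons. Of 25 genes of vesicle release 12 were at least 2-fold lower, against 8.32% of all genes, and 2 were higher, Stx1a (a ratio of 2.25 in the control library) and Syt9 (2.58), both named after their values were seen. The lower ones included Snap25, at 785 and 753 CPM against 1722 and 1645, and Slc17a7, a vesicular glutamate transporter, at 82.7 and 38.6 CPM against 433 and 371. Snap25 is also 1 of the genes that defined the other sensory neurons.

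Opioid genes bear on the floxed gene. Oprm1, the mu opioid receptor at which enkephalins act, was at 587 CPM (4180 UMIs) in control and 608 CPM (3431 UMIs) in Treg_Penk_KO members, against 181 and 206 in the other sensory neurons. Mrgpra3 neurons were at 504 CPM in the control library and Mrgprd neurons at 109. Oprd1, Oprl1 and Oprk1, the genes of the other opioid receptors, had 16, 24 and 2 UMIs in control and 20, 13 and 0 UMIs in Treg_Penk_KO members. Penk (ENSMUSG00000045573, GRCm39 chromosome 4, 4132722 to 4141856, minus strand) had 4 UMIs in the control members and 0 in the Treg_Penk_KO members, too few for a ratio. In the other sensory neurons it had 467 UMIs (2.04 CPM) in the control and 1 UMI (0.00743 CPM) in the Treg_Penk_KO library, although the recombinase is driven by Foxp3; the reach of the deletion was not tested.

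The members also differed among themselves. The members lowest in the rule genes were also low in several other markers. In members at 5 to 10 per 10000 of Nppb and Il31ra together, 33 control and 26 Treg_Penk_KO cells, Osmr was at 284 and 366 CPM, while at 20 to 30 per 10000 (102 and 86 members) it was at 1164 and 1222. Oprm1 went from 250 and 303 CPM to 708 and 673, and Jak1 from 937 and 987 CPM to 2924 and 3011. In the 56 and 58 members at 30 per 10000 or more Jak1 was lower again, at 2582 and 2655 CPM, and Osmr was at 1091 and 1250. Sst was highest at 10 to 20 per 10000, at 251 and 249 CPM, and stood at 111 and 165 CPM in the members highest in the rule genes. Apoe, a satellite glia marker, went the other way, from 3009 and 1147 CPM to 293 and 280. Mrgprd went from 228 and 389 CPM to 10.8 and 10.9, and Pvalb, a marker of muscle-sensing neurons, from 292 and 153 CPM to 18.6 and 36.1. The split used the same level that chose the members, and any further RNA in a barcode adds to its total and lowers that level. More RNA of glia and of other neuron types in the members low in the 2 rule genes is therefore partly built into the split. Whether these barcodes held more than 1 cell was not tested.

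**Figure D3:**
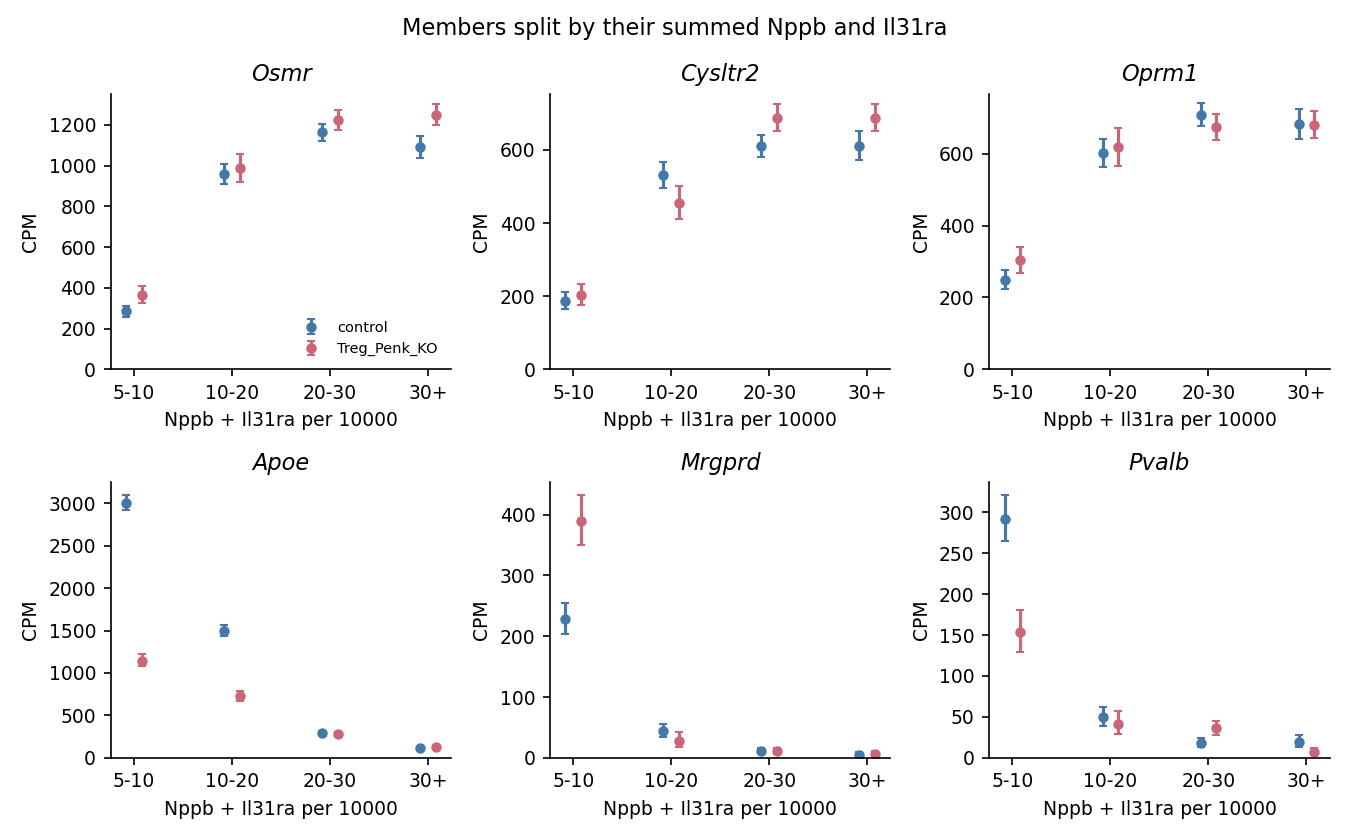
CPM with exact Poisson intervals of 6 genes in members split by their summed Nppb and Il31ra per 10000, for the control (blue) and Treg_Penk_KO (red) libraries. Osmr, Cysltr2 and Oprm1 are lowest and Apoe, Mrgprd and Pvalb highest in the members between 5 and 10 per 10000.

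Across single members the rank correlation of Nppb with Il31ra was 0.45 in the control (n = 265) and 0.46 in the Treg_Penk_KO library (n = 208), and that of Il31ra with Osmr was 0.54 and 0.49. Sst went with Nts, at 0.47 and 0.37, but hardly with Nppb, at 0.0037 and 0.15. These values describe cells of 1 library that share depth and glial RNA, so they carry no test. Nppb and Il31ra also chose the members, so correlations with either gene are shaped by the rule and are a description only.

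Between the libraries most genes of the itch neurons stood at similar levels. Of 7387 genes at 20 CPM or more, the middle 90% had a ratio of Treg_Penk_KO to control between 0.800 and 1.17, against 0.900 to 1.10 for 7636 genes in the more numerous other sensory neurons. The ratio of the Treg_Penk_KO to the control members passed 1.5-fold upwards in 12 genes (0.162%) and downwards in 98 (1.33%). In the other sensory neurons 2 genes (0.0262%) were past 1.5-fold higher and 4 (0.0524%) lower. The median ratio in the members was 0.997, and these counts use no test because each genotype is 1 library.

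The 4 markers that the rule did not use stood slightly higher in the Treg_Penk_KO members, with a median ratio of 1.13, and 0 of 4 passed 1.5-fold. Osmr had a ratio of 1.14 (1.10 to 1.18), Cysltr2 1.13 (1.08 to 1.19), Htr1f 1.14 (1.06 to 1.22) and Sst 1.13 (1.04 to 1.23). Over all 6 markers the median ratio was 1.13 in the members and 1.19 in the other sensory neurons. The other sensory neurons exclude barcodes that met the rule on Nppb and Il31ra, and the markers were low there. These 2 medians are therefore a description only. Without the members richest in glial RNA, described below, Osmr was at 1.08, Cysltr2 at 1.07, Htr1f at 1.06 (0.984 to 1.14) and Sst at 1.09. The Sst ratio moved with the weight given to each member: it was 1.36 with members weighted equally and 1.83 (1.43 to 2.34), past 1.5-fold, with each thinned to 3000 UMIs. Oprm1 had a ratio of 1.03 (0.989 to 1.08).

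In the pathway lists given next the median ratios were close to that of all genes (0.997). Over all genes read 0.162% were past 1.5-fold higher and 1.33% lower, so a count of 0 on a short list says little. In the interleukin 31 list, again without Il31ra, 0 of 23 genes passed 1.5-fold either way and the median ratio was 1.01. The same held for 0 of 20 other itch receptors (median 1.01), 0 of 14 transduction channels (1.06), 0 of 27 interferon response genes (0.986) and 0 of 9 opioid receptor and Gi signalling genes (1.04). Among 18 neuropeptide genes other than Nppb 2 were higher, Nts and Adcyap1, and 0 lower. Adcyap1, which encodes the peptide PACAP, had a ratio of 1.61, but 1.01 without droplets found in both libraries and 1.31 without the Treg_Penk_KO members with nerve injury genes described below.

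Glial markers were among the genes that stood lower, and 10 of the 98 were on the lists of satellite glia or myelinating Schwann cell markers. Of 7 satellite glia markers read 5 were past 1.5-fold lower, with a median ratio of 0.494, and of 7 myelinating Schwann cell markers 5, with a median of 0.597. Over all genes read 1.33% were past 1.5-fold lower. Apoe was at 1062 CPM (7561 UMIs) in control and 435 CPM (2458 UMIs) in Treg_Penk_KO members, a ratio of 0.410 (0.391 to 0.429), and its ratio in the other sensory neurons was 0.806. Fabp7, a fatty acid binding protein of satellite glia, was at 149 and 71.9 CPM (0.484, 0.430 to 0.543). Prx, which stabilises the myelin sheath, was at 96.8 and 54.5 CPM (0.564, 0.491 to 0.646).

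The summed level of the 10 satellite glia markers was 1623 CPM in the control and 786 in the Treg_Penk_KO members, and that of the 9 Schwann markers 1582 and 1111 CPM. Per cell, the satellite sum ran from 0 through a median of 3.89 to 285 per 10000 in control and from 0 through 3.01 to 146 in Treg_Penk_KO members. Over both lists the typical member was alike in the control and Treg_Penk_KO libraries. The medians were 9.55 and 9.52 per 10000, the upper quartiles 21.9 and 22.0, and the highest values 520 and 449. With the members richest in glial RNA left out (over 21.9 per 10000 of both lists, leaving 199 and 156), the lower genes numbered 20 and not 98, and 9 of them were among the 98. Apoe was still lower there, at a ratio of 0.566 (426 UMIs against 930), whereas Mbp was at 0.802 and Slc17a7 at 0.772. Pvalb and Spp1, 2 of the 3 proprioceptor markers read, were also lower among all members, while the third had a ratio above 1. The summed level of the 5 markers on that list was 472 CPM in control and 449 in Treg_Penk_KO members. Pvalb was at 80.4 CPM in control and 46.0 in Treg_Penk_KO members, and Spp1 at 31.2 and 13.8. Without the members richest in glial RNA Pvalb turned to a ratio of 1.21, while Spp1 was at 0.651 (0.451 to 0.930). With each member thinned to 3000 UMIs Pvalb was at 0.988 and Spp1 at 0.343. Without droplets found in both libraries they were at 0.301 and 0.321.

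Iqsec1, a guanine nucleotide exchange factor for ARF proteins, was at 67.1 and 32.8 CPM, a ratio of 0.488 (0.410 to 0.579). Nr4a1, an immediate early transcription factor, was at 32.2 and 11.3 CPM (0.352, 0.263 to 0.467). Most of its UMIs lay in the members richest in glial RNA. Without those members its UMIs fell from 229 to 40 in control and from 64 to 13 in Treg_Penk_KO members, a ratio of 0.402 (0.197 to 0.766). On the list of glucocorticoid-induced genes 2 of 13 were lower, against 1.33% of all genes, with a median ratio of 0.834. Without the members richest in glial RNA 0 of 11 were lower. These 2, the metallothionein genes Mt1 and Mt2, stood at 93.7 CPM (Mt1) and 58.9 CPM (Mt2) in control members, with 54.2 and 29.9 CPM in the others. Car8, named after its value was seen, was at 37.4 and 10.1 CPM (0.270, 0.199 to 0.361), and in the other sensory neurons its ratio was 0.454.

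**Figure D4:**
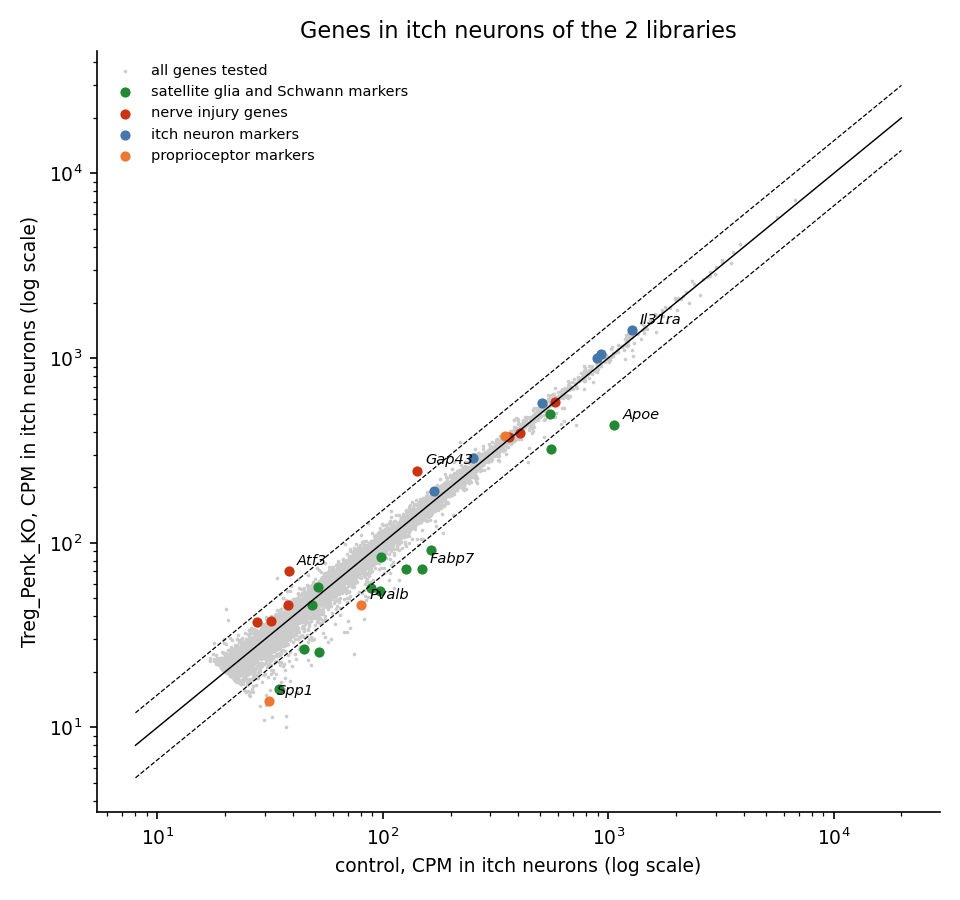
CPM of each gene in the itch neurons of the control library (x axis) against the Treg_Penk_KO library (y axis), both on log scales, with the line of equality and dashed lines at 1.5-fold. Markers of satellite glia and Schwann cells (green) lie mostly below the lower dashed line, nerve injury genes Gap43 and Atf3 above the upper one and itch neuron markers (blue) between them, and Sprr1a, at 0 UMIs in the control, is not drawn.

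Several of the 12 higher genes owed much of their UMIs to a few cells. Atf3, a transcription factor induced by axon damage, had 273 UMIs (38.4 CPM) in control and 397 UMIs (70.3 CPM) in Treg_Penk_KO members, a ratio of 1.83 (1.57 to 2.15). Gap43, a protein of growing axons, was at 142 and 246 CPM (1.74, 1.60 to 1.89), and Nts at 142 and 244 CPM (1.72, 1.58 to 1.86). Sprr1a, another regeneration gene, had 0 UMIs in control and 397 in Treg_Penk_KO members, at least 167-fold higher with a floor of 3 counts over the class (exact lower bound 135), but a single barcode held 83.1% of them. Of the 9 nerve injury genes read 3 were past 1.5-fold higher, against 0.162% of all genes, and the median ratio of the 9 was 1.21. Without the Treg_Penk_KO members with nerve injury genes described next, 0 of the 8 then read were past 1.5-fold, with a median of 1.04.

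Of the Treg_Penk_KO members, 4 of 208 (1.92%, 0.526 to 4.85) held at least 10 UMIs and 3 per 10000 of the injury genes Sprr1a, Sox11 and Ecel1 together, against 0 of 265 in the control, which at 3 counts allows up to 1.13% (exact upper bound 1.38%). In the other sensory neurons 24 of 5949 (0.403%) and 13 of 4376 (0.297%) did. The rule had been changed after its result was seen. As first written, with 10 UMIs at any depth, it also took in a deep control member and left 264 of 265. Atf3 alone, at 3 per 10000 or more, was found in 5 of 265 control (1.89%) and 9 of 208 Treg_Penk_KO members (4.33%), with overlapping intervals. The 4 cells past the final rule held 75, 36, 21 and 15 UMIs of Atf3, 180, 89, 129 and 108 of Gap43 and 123, 188, 19 and 106 of Nts. Each had 0 UMIs of Sst, with 7, 13, 12 and 11 UMIs of Nppb and 20, 18, 56 and 25 of Il31ra. Without them Gap43 had a ratio of 1.14, Atf3 1.19 and Nts 1.21, and 3 genes were past 1.5-fold higher in place of 12: Ly6e and Snapc1, which were among the 12, and Pcp4l1, which was not.

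Sst and Nts were read together in the same cells. Among control members with Sst (166) Nts was at 165 CPM, and among those without (99) at 72.2. In the Treg_Penk_KO library the order was opposite, with 183 CPM in the 161 members with Sst and 511 CPM in the 47 without, the group that included the 4 cells with injury genes. Those 4 cells held 436 of its 536 Nts UMIs, and without them the other 43 members stood at 112 CPM (91.5 to 137), below the members with Sst as in the control.

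**Figure D5:**
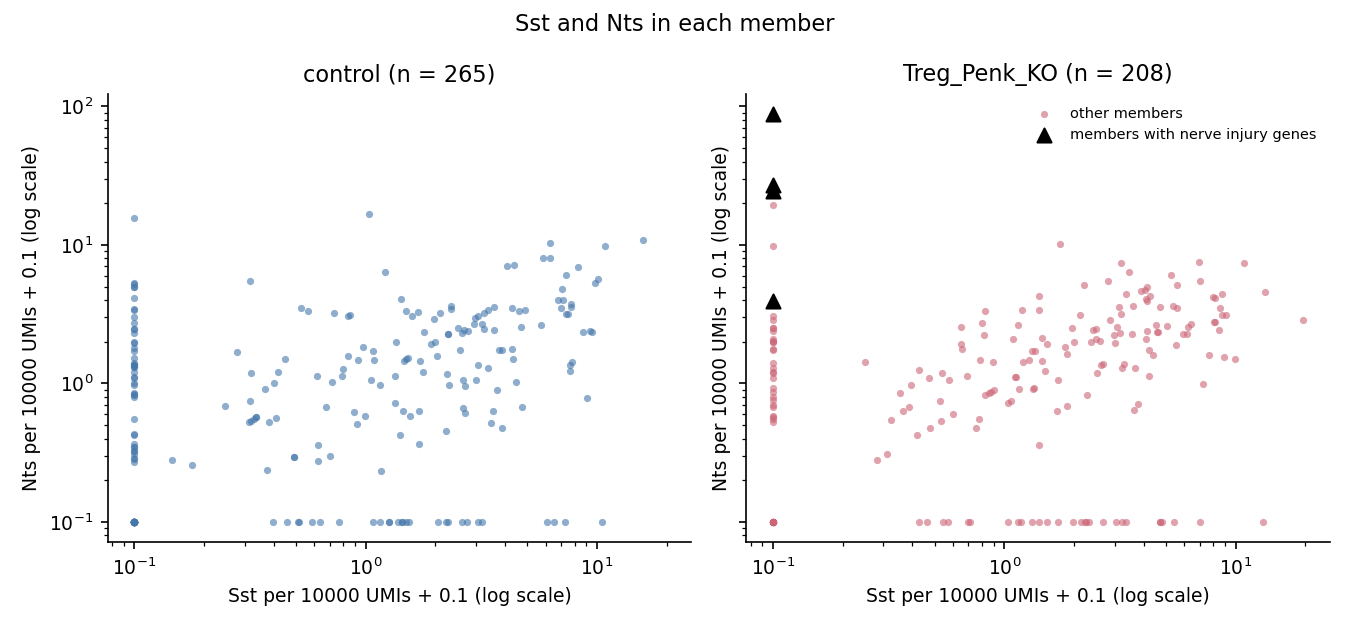
Sst (x axis) and Nts (y axis) in UMIs per 10000 with 0.1 added, on log scales, for each of the 265 control and 208 Treg_Penk_KO members. Black triangles mark the 4 members with nerve injury genes, which lie at 0 for Sst and include the highest Nts values.

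Other genes of the Treg_Penk_KO members changed less when these cells were left out. Snapc1, part of the factor that activates promoters of small nuclear RNAs, was at 33.9 and 64.3 CPM, a ratio of 1.90 (1.61 to 2.24), and 1.88 without the injury cells; it was also higher in the other sensory neurons, at 1.49. Gfra3, the receptor subunit for the growth factor artemin, was at 221 and 352 CPM (1.60, 1.49 to 1.71) and at 1.42 without the injury cells, against 1.16 in the other sensory neurons. Ptpro, a receptor tyrosine phosphatase, was at 85.8 and 128 CPM (1.49, 1.34 to 1.66), just under 1.5-fold, against 1.03. Necab1, a calcium-binding protein, was at 42.0 and 63.4 CPM (1.51, 1.29 to 1.77), and at 1.49 without the injury cells. With each member thinned to 3000 UMIs, Snapc1 was at 2.22, Gfra3 at 1.31, Ptpro at 1.17 and Necab1 at 1.42. Without droplets found in both libraries these genes were at 1.76, 1.36, 1.51 and 1.71. Ly6e, a small membrane-anchored protein named after its value was seen, was at 20.2 and 43.6 CPM (2.15, 1.75 to 2.66) in the members and at 32.2 and 40.0 CPM in the other sensory neurons.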

How the data were processed

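Whole-number UMI counts for each gene in each barcode were deposited, which the authors made with Cell Ranger against GRCm39, version 7.0 per the labels' protocols and 8.0.1 per the file headers. A multiplexed probe kit for fixed RNA read 19059 genes, an assay named single-nucleus in the design text and single-cell in the labels. Barcodes had been called as cells, no doublets were removed here, and the libraries hold 259136217 and 156441497 UMIs. The members, the 29 gene lists, the comparison classes and the rule for named genes were chosen with earlier results of these data known.

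UMIs were summed per class and library (scipy 1.17.1 and pandas 2.3.3 in Python 3.11.15). CPM have exact Poisson, shares Clopper-Pearson and ratios exact conditional binomial intervals, which leave out the spread between cells, animals and preparations. Mrgprd neurons held at least 5 UMIs and 5 per 10000 of Mrgprd, Mrgpra3 neurons 2 UMIs and 1 per 10000 of Mrgpra3, and non-neuronal barcodes under 30 per 10000 of the neuronal genes. Genes at 20 CPM or more were read, past 1.5-fold between libraries and 2-fold between classes. Named were the 6 markers, the 15 genes highest over other sensory neurons, the 10 highest and 10 lowest between libraries with no barcode over 10% of a gene's UMIs, up to 4 per list and those past the fold, and opioid genes. The ratio was checked on simulated counts.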

Additional observations from a re-analysis of the deposited data

Results flagged for a closer look

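Genes are given here because they moved one way past 1.5-fold in the itch neurons and the opposite way in the other sensory neurons, where the interval lay on the other side of 1. The difference between the 2 classes was not tested, and each class is 1 library per genotype. Atf3 had a ratio of Treg_Penk_KO to control of 1.83 in the itch neurons and 0.870 (0.827 to 0.915) in the other sensory neurons. Sprr1a was at least 167-fold higher, with a floor of 3 counts (exact lower bound 135), against 0.558 (0.490 to 0.634). Nts had a ratio of 1.72 against 0.779 (0.713 to 0.851). Without the 4 Treg_Penk_KO members that held nerve injury genes, Atf3 and Nts were at 1.19 and 1.21, and Sprr1a had 1 UMI against 0. Without droplets found in both libraries Sprr1a had 66 UMIs against 0. Mbp, a myelin protein gene, had a ratio of 0.554 against 1.05 (1.03 to 1.07), and it was at 0.802 with the members richest in glial RNA left out.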

How the results depend on the processing

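No paired analysis was possible because each genotype is 1 library. The share of itch neurons was 4.49% in the Treg_Penk_KO library at 5000 UMIs or more, 4.17% in the control without droplets found in both libraries, 2.74% and 2.94% without the members richest in glial RNA and, with sensory neurons as denominator, 4.26% and 4.54%. The 12 higher and 98 lower genes became 5 and 26 at 50 CPM, 650 and 1554 with no filter beyond 1 UMI in each library, 106 and 370 at a fold under 1.5 and 2 and 26 at 2-fold. Each member weighted equally gave 26 higher, and members thinned to 3000 UMIs, which leaves fewer counts, gave 323 and 465. Without the members richest in glial RNA 20 were lower, and without them and the injury cells 7 were higher and 23 lower. Without droplets found in both libraries 15 were higher and 103 lower, of which 8 and 55 were among the 12 and 98.

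Leaving out injury cells was chosen after seeing the data, as were both glial and injury cells, members with markers of another neuron type, and the sensory neuron denominator. The injury rule was changed once after its result was seen: as first written, with 10 UMIs at any depth, it also removed 1 deep control member and left 2 higher genes, and with 3 per 10000 added it leaves 3.

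Ints7 turned to 0.956 when thinned. Without the members richest in glial RNA Bcan turned to 1.33, Ncmap to 1.00, Pvalb to 1.21 and Drp2 to 1.13, and without the injury cells too Bcan to 1.38, Pvalb to 1.24, Plaat3 to 1.02 and Drp2 to 1.14. The cause was not tested.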
